A study of Mus musculus with 4 samples.

Results

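A set of 9 genes of antibody production and secretion was followed in whole lung of mice labelled SCD, for sickle cell disease, and of wild-type (WT) mice. They encode the heavy chains of IgM (Ighm), IgG1 (Ighg1) and IgG2b (Ighg2b), the chain that joins antibodies into polymers (Jchain), the receptor that carries such polymers across epithelium (Pigr), a set of 3 plasma cell proteins (Mzb1, Tnfrsf17 and Derl3) and the B cell surface protein CD20 (Ms4a1). The 9 genes were chosen by name, with earlier results of these data known, from 30701 genes measured. Each was to be read from its brightest probe set among those annotated to no other gene. All 9 had exactly 1 such probe set, so brightness decided nothing. Jchain is listed on the array under its older symbol, Igj.

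The SCD group held 2 arrays, from adult mice of a strain labelled SCD Tg, and the WT group held 2 arrays, from adult, age-matched mice of strain C57/BL6. The tissue of every sample was the whole lung and total RNA was hybridised to Affymetrix expression arrays. The labels name neither the globin alleles nor the line of the SCD mice, nor age in weeks or sex. Genotype and strain cannot be told apart in this design, and the labels count lungs per group without tying arrays to animals, so p-values measure only the spread between these samples. Values are log2 expression values on the scale deposited by the authors, and every difference is SCD minus WT on that scale.

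B cells carry antibody as a membrane receptor together with surface proteins such as CD20 and CD79. On activation some become plasma cells, which lose most of those surface proteins, switch on the factors Blimp-1 and XBP1, widen the endoplasmic reticulum and secrete antibody in bulk. The heavy chain class follows from which constant gene is joined to the variable region: IgM first, then IgG, IgE or IgA after class switching. In the airways, IgA polymers and IgM held together by the joining chain are taken up by the polymeric immunoglobulin receptor and released into the lumen.

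Of the 9 genes, 4 rose in SCD lung: Jchain, Ighg2b, Pigr and Ighm. None fell, and 5 did not pass (Ighg1, Mzb1, Tnfrsf17, Derl3 and Ms4a1). The test was limma across all 30701 genes with a Benjamini-Hochberg adjusted p threshold of 0.05, which called 2.46% of all genes higher and 0.635% lower (3.09% in either direction). The antibody transcripts differed by between 0.40 and 3.01, the assembly and transport genes by 0.91 and 3.30, the plasma cell genes by between 0.18 and 0.33, and Ms4a1 by -0.0094. In 8 of the 9 genes both SCD arrays lay above both WT arrays, an arrangement found in 25.3% of all genes, while the Ms4a1 values of the groups overlapped. When either SCD array was left out, limma called 0 of the 9 genes and 0 of all genes, with 3302 genes (SCD replicate 1 left out) and 3267 genes (SCD replicate 2 left out) at an unadjusted p under 0.05. Those fits leave 1 array in the SCD group, which weakens the test, and take the residual spread from the WT arrays alone. Fits without a WT array leave 1 in the WT group and take the residual spread from the SCD arrays alone. For Jchain, Ighg2b, Ighm and Pigr the limma SE was larger when an SCD array was left out than when a WT array was. Why all calls were lost only without an SCD array was not tested further. With SCD replicate 1 and with SCD replicate 2 left out, the differences were 3.25 and 3.35 for Jchain, 3.02 and 2.99 for Ighg2b, 0.83 and 0.73 for Ighm, and 0.83 and 0.99 for Pigr. With WT replicate 1 left out it called Jchain and Ighg2b of the 9, and 15 genes of the wider lists described below, against 24 with all arrays. The median of the exon control probes was 10.26 and 10.29 on the SCD arrays, against 10.01 and 10.15 on the WT arrays. The intron control probes went the other way, with medians of 6.308 and 6.275 on the SCD arrays, against 6.478 and 6.473 on the WT arrays. Taking off the exon control shift therefore moves the groups further apart at the intron controls, and its results for dim genes are limited by this. With the exon control shift taken off every SCD value, Jchain, Ighg2b and Ighm still passed and Pigr did not (adjusted p = 0.0621).

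**Figure D1:**
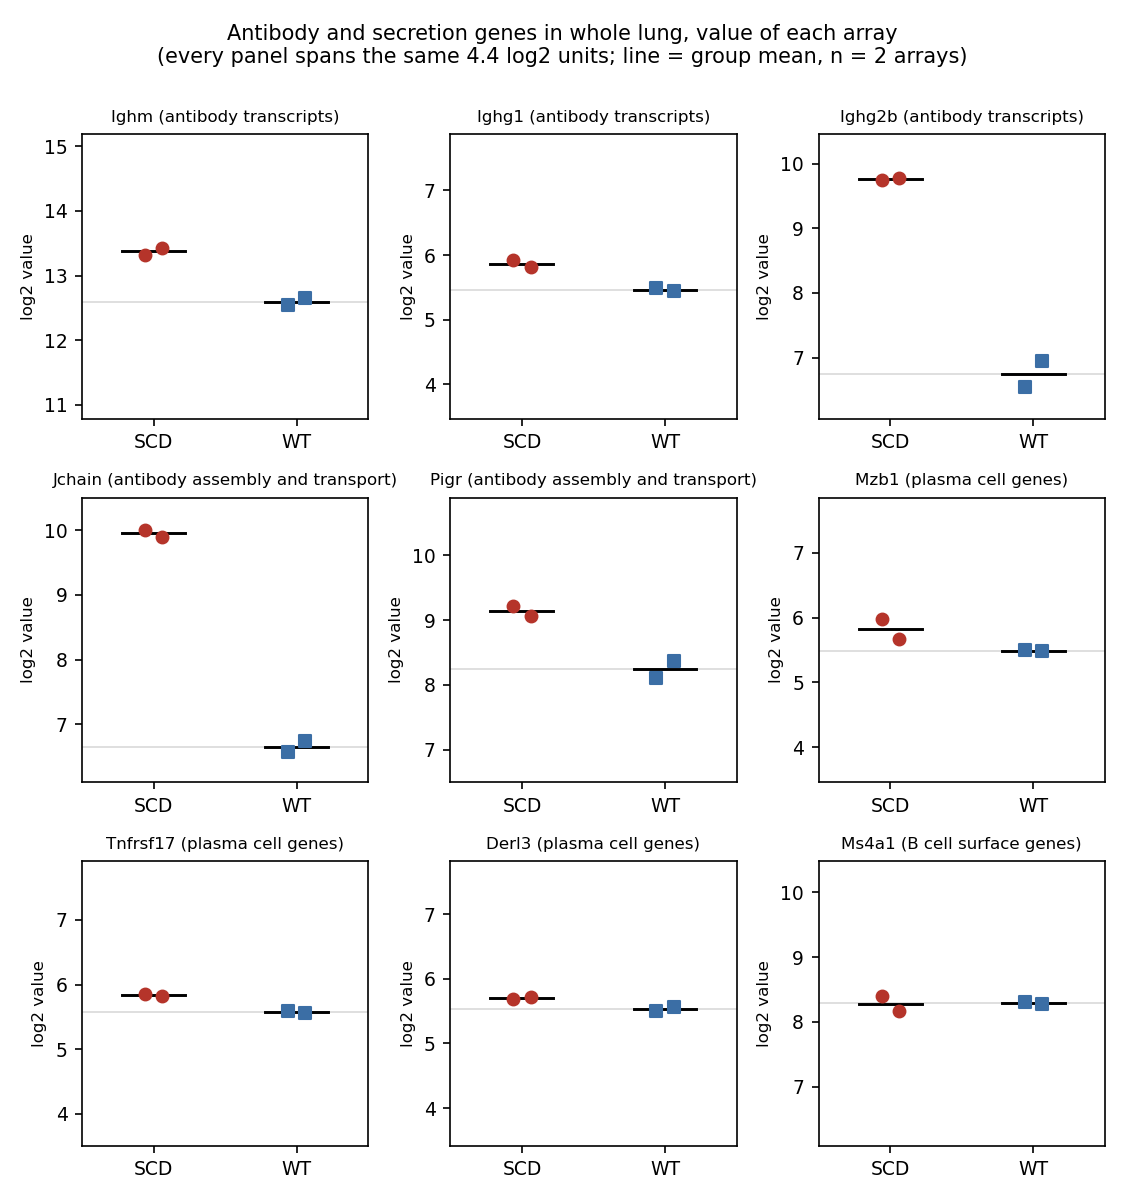
Log2 value of each gene on each array, with SCD arrays as red circles, WT arrays as blue squares and the group mean as a black line (n = 2 arrays per group); every panel spans the same range. The groups lie about 3 log2 units apart for Ighg2b and Jchain and overlap for Ms4a1.

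Of the 4 heavy chain constant genes with a probe set of their own (Ighm, Ighg1, Ighg2b and Ighe), Ighg2b and Ighm rose, and Ighg1 and Ighe lay under the intron control medians. Ighg2b, the constant gene of the IgG2b heavy chain, had values of 9.74 and 9.77 on the SCD arrays, against 6.55 and 6.95 on the WT arrays. The groups were far apart, with a gap of 2.79 between the lower SCD and the higher WT array. The difference was 3.01 ± 0.16 (limma SE; adjusted p = 0.00434), an 8.03-fold increase. Both WT values lay above the median of the intron control probes on the WT arrays (6.48 and 6.47), which serve here as a guide to background signal.

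Ighm encodes the heavy chain of IgM, the class made by unswitched B cells as well as by plasma cells. Its values were 13.32 and 13.43 on the SCD arrays, against 12.54 and 12.65 on the WT arrays. Both SCD arrays were higher, with group means of 13.37 ± 0.07 in SCD and 12.59 ± 0.08 in WT lung (SD, n = 2 each). The difference of 0.78 ± 0.08 (adjusted p = 0.0154) was a 1.72-fold increase. The call was lost by a small margin with WT replicate 1 left out (adjusted p = 0.0532).

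Ighg1, the constant gene of IgG1, had values of 5.93 and 5.81 on the SCD arrays, against 5.49 and 5.45 on the WT arrays. The groups did not overlap, but the difference of 0.40 ± 0.11 did not pass (adjusted p = 0.171). All 4 values lay under the intron control medians of their arrays, and little signal stood behind this probe set. Ighe, the constant gene of IgE and no member of the set, overlapped between the groups, at 4.73 and 4.84 on the SCD arrays, against 4.81 and 4.64 on the WT arrays.

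The difference of Ighg2b exceeded that of Ighm by 2.22, with a 95% interval of 1.77 to 2.68 from the moderated SEs of both genes. The same contrast with Ighg1 is not given, since its probe set was under the intron control medians. Such intervals take the errors of the paired genes as independent and were not corrected for the 15 pairs compared. An exact permutation test of 2 against 2 arrays cannot go below p = 0.333 (two-sided), so no such test could pass.

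The other constant genes share their probe sets and were read from a fit over every transcript cluster, in which 0.914% of 65956 clusters were called higher and 0.553% lower. A cluster annotated to Igha, Ighd and Ighg2c, with J segments and 1 V segment, had values of 10.94 and 11.02 on the SCD arrays, against 9.19 and 9.45 on the WT arrays. It rose by 1.66 ± 0.14 (limma adjusted p = 0.0196), and its signal cannot be split between IgA, IgD and IgG2c. The light chain clusters rose as well. The cluster of the kappa constant gene Igkc with V and J segments had 8.55 and 8.59 on the SCD arrays, against 7.37 and 7.26 on the WT arrays, a difference of 1.25 ± 0.13 (adjusted p = 0.0311). The cluster of Iglc1, Iglc2 and Iglc3, the lambda constant genes, had 10.62 and 10.44 on the SCD arrays, against 9.42 and 9.40 on the WT arrays, a difference of 1.12 ± 0.12 (adjusted p = 0.034). A cluster shared by Ighg3 and Ighm did not pass (0.48 ± 0.18, limma adjusted p = 0.346). Its values of 5.93 and 5.51 on the SCD arrays and 5.26 and 5.22 on the WT arrays lay under the intron control medians. The 3 clusters that pair Ighm with 1 V segment each did not pass either. Their groups overlapped, with differences of 0.50 ± 0.30, 0.38 ± 0.37 and -0.08 ± 0.19.

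**Figure D2:**
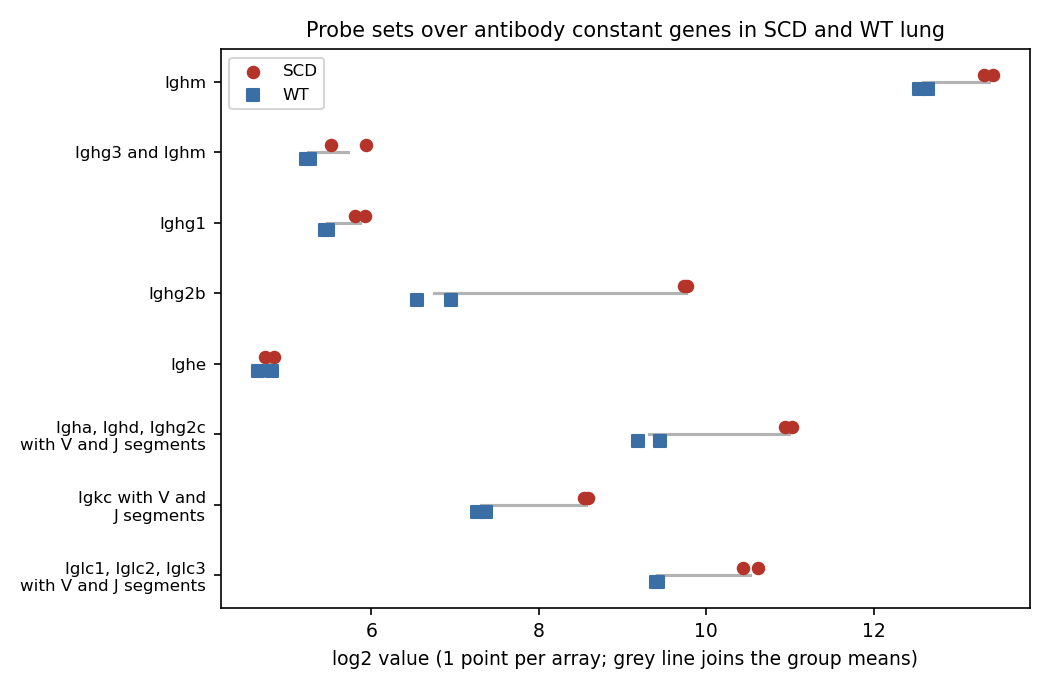
Log2 value of each array for the probe sets over antibody constant genes, with SCD arrays as red circles and WT arrays as blue squares. A grey line joins the group means. The clusters that pair Ighm with 1 V segment each are not shown. The Ighg2b probe set shows the widest gap between the groups, the shared Igha, Ighd and Ighg2c cluster and both light chain clusters lie between 1.12 and 1.66 apart, and Ighe overlaps.

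In the RefSeq gene order on chromosome 12, Ighg2b stands between Ighg2c and Ighg1, followed by Ighg3, Ighd and Ighm. Of its neighbours, Ighg1 did not pass and the cluster that includes Ighg2c rose. Inbred mouse strains are known to carry different alleles of the heavy chain constant genes, and strain and genotype cannot be told apart here.

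Jchain encodes the joining chain, a small protein that links IgM pentamers and IgA dimers and marks them for transport by the polymeric immunoglobulin receptor. Pigr encodes that receptor, which airway epithelial cells carry on their basal side. RefSeq promoter windows, of 250 bases before to 50 after the gene start (build GRCm38.p6), were given for 4 of the 9 genes: Jchain, Pigr, Tnfrsf17 and Derl3. The windows were searched on both strands for the octamer of antibody gene promoters (ATTTGCAT), the core of the interferon-stimulated response element (GAAA, any 2 bases, GAAA), the palindromic E-box (CACGTG) and the endoplasmic reticulum stress element (CCAAT, any 9 bases, CCACG). The E-box can overlap the last letters of the stress element, and the other motifs share no fixed overlap. Jchain (chr5:88527848-88528147, minus strand) and Pigr (chr1:130826434-130826733, plus strand) are shown because both rose in SCD lung, and capitals mark the motif found.
Jchain: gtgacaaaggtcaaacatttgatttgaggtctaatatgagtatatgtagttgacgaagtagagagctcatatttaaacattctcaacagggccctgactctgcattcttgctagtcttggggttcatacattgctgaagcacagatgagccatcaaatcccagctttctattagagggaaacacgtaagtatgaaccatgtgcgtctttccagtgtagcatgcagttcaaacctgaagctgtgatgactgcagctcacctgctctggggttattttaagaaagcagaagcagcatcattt
Pigr: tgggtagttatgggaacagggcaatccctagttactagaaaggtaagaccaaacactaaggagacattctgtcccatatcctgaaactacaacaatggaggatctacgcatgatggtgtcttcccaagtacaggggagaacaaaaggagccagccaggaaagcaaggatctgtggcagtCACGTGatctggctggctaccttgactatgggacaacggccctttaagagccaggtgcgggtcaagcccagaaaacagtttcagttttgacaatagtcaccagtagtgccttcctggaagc
The Jchain window held none of the 4 motifs. The Pigr window held the E-box once, at positions -71 to -66 from the start, a motif found in 7.15% of all 32851 windows. The octamer was found in 1.74% of all windows and in none of the 4 genes' windows.

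Jchain showed the largest difference of the 9 genes. Its values were 10.01 and 9.90 on the SCD arrays, against 6.57 and 6.74 on the WT arrays. The groups were separated by a gap of 3.16, against SDs of 0.08 in SCD and 0.12 in WT lung (n = 2 each). The difference of 3.30 ± 0.11 (limma adjusted p = 0.00233) was a 9.85-fold increase. It ran from 3.14 to 3.33 under 11 other settings of normalization, filter and variance model. Only the normalization settings could move it: 3.31 with quantile normalization, 3.33 with equal array medians and 3.14 with the exon control shift removed. As with Ighg2b, the WT values lay close to the intron control medians.

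Jchain moved more than Ighm, while its difference was not separated from that of Ighg2b. The Jchain difference exceeded that of Ighm by 2.52 (95% interval 2.16 to 2.88) and that of Ighg2b by 0.29, with an interval of -0.20 to 0.79 that includes no difference.

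Pigr had values of 9.23 and 9.07 on the SCD arrays, against 8.10 and 8.37 on the WT arrays. Both SCD arrays were higher, and the WT arrays differed from each other by more than the SCD arrays did. The increase of 0.91 ± 0.13 (1.88-fold; adjusted p = 0.0396) was the one closest to the threshold. It was lost in limma with no intensity trend (adjusted p = 0.0603) and with SCD replicate 1, SCD replicate 2 or WT replicate 1 left out (adjusted p of 0.0951 to 0.269).

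Genes of the airway epithelium, where Pigr is used, were read beside it. Of 17 measured genes of a list of airway epithelium, 6 rose, 0 fell and 11 did not pass. The median difference was 0.52, against 0.0019 over all genes, or 0.36 against -0.16 with the exon control shift taken off. Bpifa1, a secreted defence protein of the airway, rose by 1.28 ± 0.12, and Krt8, a keratin of simple epithelium, by 1.48 ± 0.18, beside Reg3g, Bpifb1, Muc5b and Ltf. The summed log2 values of the list were 195.24 and 194.91 on the SCD arrays, against 179.13 and 182.29 on the WT arrays. Cyp2f2, a cytochrome of club cells, did not pass (-0.08 ± 0.05). Scgb1a1, the secretoglobin that defines club cells, had the identical value of 19.93 on all 4 arrays and gives no direction. The part of the epithelial genes in the Pigr difference was not tested.

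Of 10 genes of antibody transport and Fc receptors, 3 rose and 0 fell: Pigr, Fcamr and Fcgr2b. The list's median difference was 0.58, or 0.42 with the exon control shift taken off. Fcamr, a receptor for the Fc parts of IgM and IgA, had 6.47 and 6.58 on the SCD arrays, against 5.50 and 5.56 on the WT arrays, and rose by 0.99 ± 0.11 (adjusted p = 0.018). Its WT values lay under the intron control medians. Fcgr2b, the inhibitory IgG receptor, rose by 0.74 ± 0.12 (adjusted p = 0.0469). That call was lost in limma with the replicate number as a block (0.0631), with no intensity trend (0.0652) and after removal of the exon control shift (0.0791). The Fcamr and Fcgr2b calls both ended whichever 1 of the 4 arrays was left out. Their differences then ran from 0.94 to 1.05 for Fcamr and from 0.63 to 0.84 for Fcgr2b. The signalling chain gene Fcer1g (0.58 ± 0.10; adjusted p = 0.0573) did not pass. Fcgrt, the neonatal Fc receptor that protects IgG from breakdown, overlapped between the groups, at 8.03 and 7.98 on the SCD arrays, against 7.74 and 8.29 on the WT arrays.

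The plasma cell members differed little. Mzb1 encodes a chaperone of the endoplasmic reticulum that helps IgM assemble, Tnfrsf17 encodes BCMA, the plasma cell receptor for the survival factors APRIL and BAFF, and Derl3 encodes a derlin that helps move misfolded proteins out of the endoplasmic reticulum. Mzb1 had 5.97 and 5.67 on the SCD arrays, against 5.49 and 5.48 on the WT arrays. The SCD arrays differed from each other by almost as much as the groups did (0.33 ± 0.14; adjusted p = 0.34). Tnfrsf17 had 5.86 and 5.82 on the SCD arrays, against 5.59 and 5.57 on the WT arrays. The groups did not overlap, and the difference of 0.26 ± 0.11 did not pass (adjusted p = 0.322). Derl3 had 5.69 and 5.72 on the SCD arrays, against 5.50 and 5.56 on the WT arrays, again without overlap and without passing (0.18 ± 0.11; adjusted p = 0.503).

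The 3 probe sets were dim. Every value of Mzb1, Tnfrsf17 and Derl3 lay under the intron control median of its array, as for Ighg1. With so little signal, their differences cannot be set against that of Jchain.

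**Figure D3:**
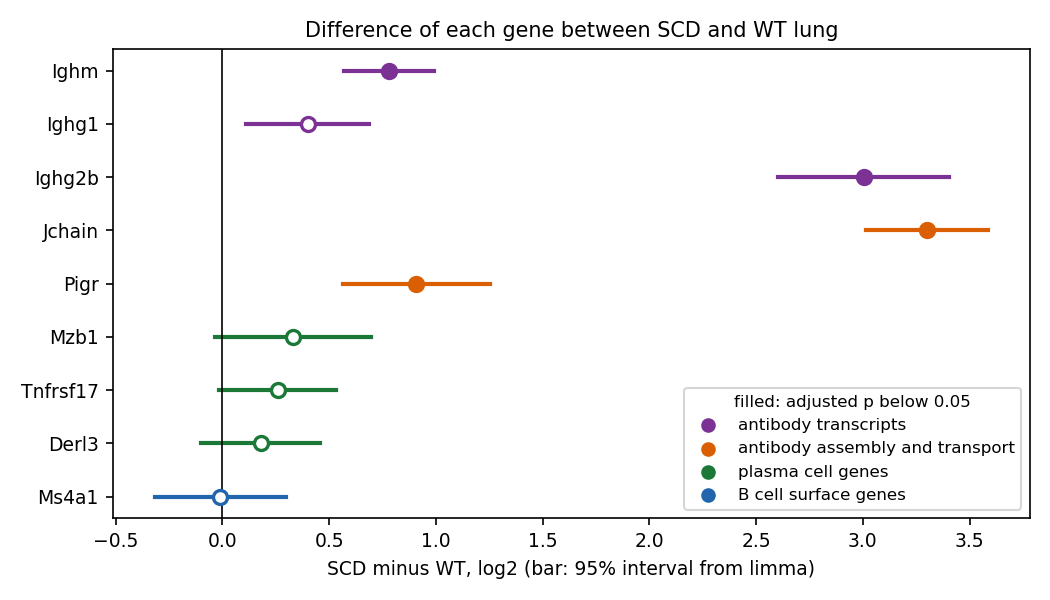
SCD minus WT difference of each gene on the log2 scale with its 95% interval from limma, coloured by role; filled points have an adjusted p below 0.05. Ighg2b and Jchain stand at 3.01 and 3.30, Ighm and Pigr near 0.8 and 0.9, and the intervals of the plasma cell genes and Ms4a1 include 0.

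Of 15 measured plasma cell identity genes, 3 rose and 0 fell, with a median difference of 0.26, or 0.10 with the exon control shift taken off. Beside Jchain these were Xbp1, the transcription factor that enlarges the secretory apparatus, and Tent5c, a poly(A) polymerase that stabilises antibody messages. Xbp1 had 10.43 and 10.43 on the SCD arrays, against 9.73 and 9.70 on the WT arrays, and rose by 0.71 ± 0.08 (adjusted p = 0.021). Tent5c had 7.63 and 7.82 on the SCD arrays, against 6.82 and 6.60 on the WT arrays, and rose by 1.01 ± 0.13 (adjusted p = 0.0295). Both calls ended whichever 1 of the 4 arrays was left out, while the differences ran from 0.70 to 0.73 for Xbp1 and from 0.90 to 1.13 for Tent5c. Both genes are also used by cells other than plasma cells. Sdc1, the surface proteoglycan CD138 by which plasma cells are sorted, overlapped between the groups (0.05 ± 0.12), as did Prdm1, the gene of Blimp-1 (0.06 ± 0.12), named after its value was seen. Ell2, an elongation factor that favours the secreted form of antibody messages (0.37 ± 0.09; adjusted p = 0.138), and Slamf7 (0.27 ± 0.10) did not pass. Pou2af1, a coactivator of antibody genes, stood at -0.23 ± 0.10 and did not pass.

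Secretory genes of the endoplasmic reticulum (ER) mostly lay higher in SCD lung. Of 30 measured, 5 rose and 0 fell, all 30 had a difference above 0, and the median was 0.46. With the exon control shift taken off, 26 of the 30 stayed above 0 and the median was 0.3. In 23 of the 30 both SCD arrays lay above both WT arrays, an arrangement found in 25.3% of all genes. Creld2, a disulfide chaperone, had 10.85 and 10.69 on the SCD arrays, against 9.59 and 9.23 on the WT arrays, and rose by 1.36 ± 0.15 (adjusted p = 0.0167). Hspa5, the chaperone BiP, also known as the antibody heavy chain binding protein, had 12.08 and 12.04 on the SCD arrays, against 11.11 and 11.23 on the WT arrays, and rose by 0.89 ± 0.08 (adjusted p = 0.0116). Herpud1, Dnajc3 and Hsp90b1 rose by 0.94, 0.69 and 0.50. The calls of these last 3 were lost in limma with no intensity trend (adjusted p of 0.0527 to 0.108), and that of Herpud1 also after removal of the exon control shift (0.0535). Pdia3 (0.52 ± 0.09; adjusted p = 0.0539) and the IgM-linked chaperone Mzb1 were among those that did not pass. ER chaperones are made by every secreting cell of the lung, and which cells gave this signal was not measured. In whole tissue, a change in the number of cells of a type and a change in RNA per cell cannot be told apart.

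The ER stress element, the site by which XBP1 and ATF6 act on chaperone genes, is shown for the member Derl3 (chr10:75893148-75893447, plus strand) and for Hspa5 (chr2:34771840-34772139, plus strand), which rose. The Tnfrsf17 window (chr16:11313559-11313858, plus strand) is set beside them as a plasma cell gene without the element. Capitals mark the stress element of Derl3 and Hspa5, the E-box of Derl3 and the interferon element core of Tnfrsf17.
Derl3: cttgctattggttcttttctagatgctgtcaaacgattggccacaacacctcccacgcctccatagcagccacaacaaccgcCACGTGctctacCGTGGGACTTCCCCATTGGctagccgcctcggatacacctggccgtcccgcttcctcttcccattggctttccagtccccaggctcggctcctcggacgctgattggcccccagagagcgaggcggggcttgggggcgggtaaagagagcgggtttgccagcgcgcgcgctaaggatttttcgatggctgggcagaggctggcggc
Hspa5: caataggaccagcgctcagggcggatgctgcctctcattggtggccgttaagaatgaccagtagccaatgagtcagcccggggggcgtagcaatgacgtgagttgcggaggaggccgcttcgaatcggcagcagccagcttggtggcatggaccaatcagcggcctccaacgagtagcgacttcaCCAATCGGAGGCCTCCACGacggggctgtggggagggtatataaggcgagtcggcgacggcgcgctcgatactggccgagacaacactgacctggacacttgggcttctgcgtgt
Tnfrsf17: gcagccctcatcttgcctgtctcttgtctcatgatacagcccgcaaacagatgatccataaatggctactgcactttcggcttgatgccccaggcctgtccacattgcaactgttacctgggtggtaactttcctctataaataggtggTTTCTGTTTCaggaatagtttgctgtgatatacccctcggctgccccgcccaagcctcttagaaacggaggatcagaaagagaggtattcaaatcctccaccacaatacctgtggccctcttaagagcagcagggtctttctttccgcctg
The stress element was found in 0.119% of all windows, or 39 of 32851, and in 8 of the 26 ER genes with a window. In Derl3 it lay at positions -156 to -138 from the start, on the opposite strand, and in Hspa5 at positions -65 to -47. Of the 8 measured ER genes with the element, 4 rose (Creld2, Dnajc3, Hsp90b1 and Hspa5), with a median difference of 0.56. Of 17 measured ER genes with a window that held no such element, Herpud1 rose, with a median of 0.48. The interferon element core in the Tnfrsf17 window is found in 3.44% of all windows. These matches describe letters and were not tested as binding sites.

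Ms4a1, which encodes CD20, a membrane protein of B cells that plasma cells lack, did not differ beyond its spread. Its values were 8.40 and 8.16 on the SCD arrays, against 8.31 and 8.27 on the WT arrays. The WT values lay between the SCD values, and all 4 were above the intron control medians. The difference was -0.0094 ± 0.12 (adjusted p = 0.981), with a 95% interval of -0.32 to 0.30, and its sign turned with quantile normalization, with equal array medians and with SCD replicate 2 or WT replicate 1 left out. Set against Ms4a1, the differences of Jchain, Ighg2b, Pigr and Ighm were larger by 3.31, 3.01, 0.92 and 0.79. The 95% intervals of all 4 lay above 0, which largely repeats their calls, since Ms4a1 stood at -0.0094. The same intervals for the dim probe sets included 0: Ighg1 (-0.01 to 0.83), Mzb1 (-0.13 to 0.82), Tnfrsf17 (-0.14 to 0.68) and Derl3 (-0.23 to 0.60).

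Other B cell surface and identity genes showed no increase that passed. Of 28 measured, 0 rose and 0 fell in limma, 8 had an unadjusted p under 0.05, and the median difference was -0.08, or -0.24 with the exon control shift taken off. In 5 of 11 other settings 2 genes of the list passed as lower, and with WT replicate 2 left out 1 passed as higher. In 13 of the 28 both SCD arrays lay below both WT arrays, an arrangement found in 22.5% of all genes, and in 2 both lay above. Cd79b, the signalling chain of the B cell receptor, had 9.49 and 9.40 on the SCD arrays, against 9.70 and 9.88 on the WT arrays (-0.34 ± 0.11; adjusted p = 0.202). Cd79a, the other CD79 chain, named after its values were seen, stood the other way without passing (0.14 ± 0.10). It had 7.32 and 7.43 on the SCD arrays, against 7.25 and 7.22 on the WT arrays. Pax5, also named after its value was seen, overlapped between the groups (0.01 ± 0.14). Bank1 (0.14 ± 0.14) and Cd180 (-0.26 ± 0.12) did not pass either. The low-affinity IgE receptor gene Fcer2a and the Fc receptor-like gene Fcrl1, named after their values were seen, came closest among the lower genes. Fcer2a had 6.24 and 6.37 on the SCD arrays, against 7.15 and 6.96 on the WT arrays (-0.75 ± 0.12; adjusted p = 0.0525). Fcrl1 had 5.61 and 5.68 on the SCD arrays, against 6.32 and 6.28 on the WT arrays (-0.66 ± 0.11, limma adjusted p = 0.052). Every Fcrl1 value, and the Fcer2a value of 6.24, lay under the intron control median of its array. Vpreb3, also named after its values were seen, had 8.25 and 8.51 on the SCD arrays, against 6.30 and 7.65 on the WT arrays, and it did not pass with this spread between the WT arrays (1.41 ± 0.44; adjusted p = 0.21).

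**Figure D4:**
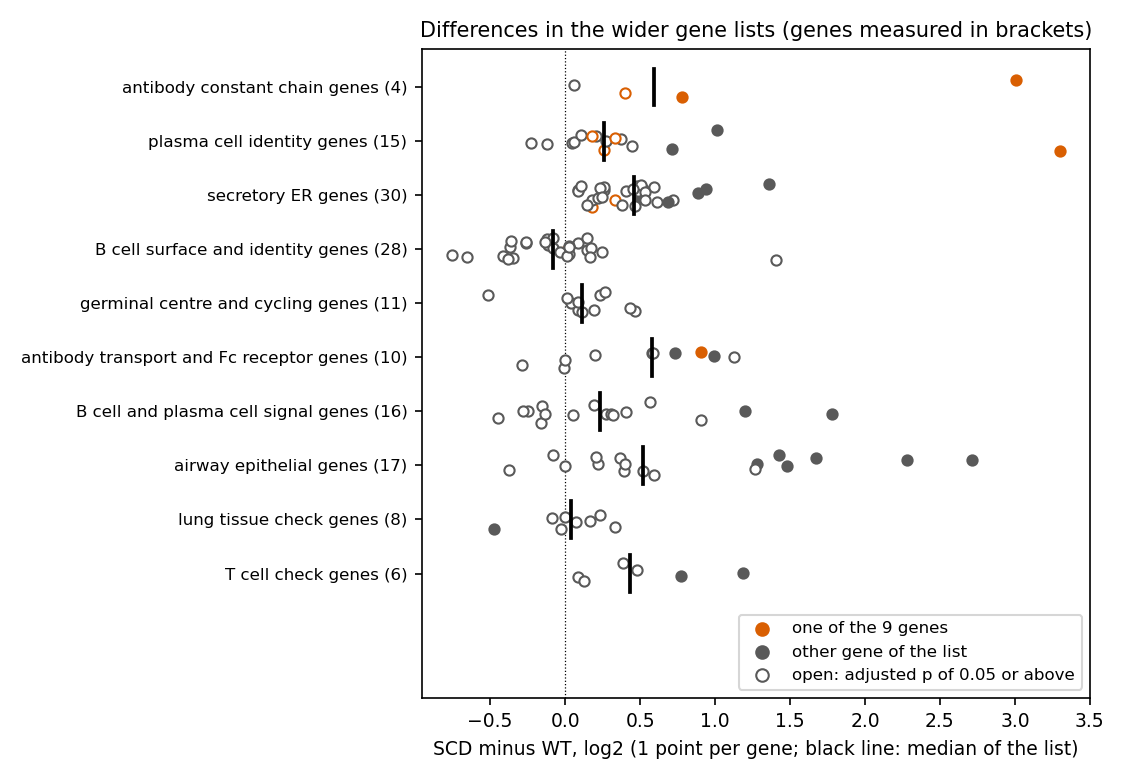
SCD minus WT difference on the log2 scale of every measured gene of the wider lists, with a black line at each list's median; filled points have an adjusted p below 0.05 and orange points are the 9 genes. Every ER gene lies above 0, although 4 fall below it with the exon control shift removed, and the B cell surface genes scatter around a median of -0.08.

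Signals that draw B cells or keep them and plasma cells alive were examined beside these genes. Of 16 measured, 2 rose and 0 fell, with a median difference of 0.23, or 0.07 with the exon control shift taken off. Cxcl13, the chemokine that draws B cells into follicles, had 9.58 and 9.83 on the SCD arrays, against 8.01 and 7.85 on the WT arrays, and rose by 1.78 ± 0.13 (adjusted p = 0.00781). Tnfsf13b, which encodes BAFF, had 8.56 and 8.79 on the SCD arrays, against 7.41 and 7.54 on the WT arrays, and rose by 1.20 ± 0.12 (adjusted p = 0.0149). Tnfrsf17, a receptor for it described above, did not pass. Cxcl12 and Cxcr4, the chemokine and receptor that hold plasma cells in the bone marrow, stood at -0.16 ± 0.16 and -0.14 ± 0.10, and Ccl19 at 0.57 ± 0.19, none of them passing. The germinal centre and cycling genes gave 0 calls in limma among 11 measured, with 3 at an unadjusted p under 0.05 and a median of 0.11, or -0.05 with the exon control shift taken off. Among these, Bcl6, the germinal centre factor, stood at 0.46 ± 0.13 and the proliferation marker gene Mki67 at 0.44 ± 0.10. Top2a (0.04 ± 0.10) and S1pr2 (0.08 ± 0.11) overlapped between the groups. Gcsam, named after its value was seen, stood the other way at -0.51 ± 0.15, with every value under the intron control medians.

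Markers of other cells were read in the same fit. The lung genes Sftpc, Sftpb, Sftpa1 and Ager were bright on all 4 arrays. T cell genes rose in 2 of 6 cases, Cd3d by 1.18 ± 0.14 and Cd3e by 0.77 ± 0.11, with summed log2 values over the 6 genes of 46.04 and 46.42 on the SCD arrays, against 42.87 and 43.52 on the WT arrays. The Cd3e call was lost with no intensity trend (adjusted p = 0.0529), after removal of the exon control shift (0.0617) and with any 1 array left out (0.0659 to 0.265). The part of the T cell genes in the differences of the antibody genes was not tested. Among the lung genes the endothelial cadherin gene Cdh5 fell by 0.47 ± 0.08 (adjusted p = 0.0491), a call lost in 5 of 11 other settings. Pecam1, another endothelial gene, named after its value was seen, stood the other way at 0.24 ± 0.10 and did not pass (limma adjusted p = 0.319).

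Profiles over the 4 arrays were compared by Euclidean distance on the log2 scale after taking off each gene's mean, among 19220 protein-coding genes outside the set. For Jchain the nearest were Fga, the fibrinogen alpha chain gene (distance 0.25), Alas2, the erythroid enzyme of heme synthesis (0.27), and Ppbp, a platelet chemokine gene (0.29). For Ighg2b they were Nppa, an atrial peptide gene (0.26), Ccl8, a chemokine gene (0.32), and Ppbp (0.32). For Ighm they were Riiad1 (0.034), Cfap161 (0.036) and Dnah7a, an axonemal dynein gene (0.042). With 4 arrays in 2 groups, likeness of this kind mainly reflects a difference of like size between the groups.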

How the data were processed

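Total RNA of whole lung from 2 SCD and 2 WT samples was biotin-labelled with a 3' in vitro transcription kit and hybridised to Affymetrix arrays, per the labels' protocols. The authors deposited 1 table of log2 values, read as log2 from their range (1.72 to 19.93). Affymetrix Expression Console, Partek and RMA are named in the submitters' processing notes; their versions, roles and order, and the genome build, are not given in sources used here. The table held 65956 transcript clusters and 6732 controls. The platform annotation paired 31258 clusters with 1 gene, 1492 with several and 33206 with none, with older symbols updated through the RefSeq table of GRCm38.p6. Of the 30701 genes, 442 had several probe sets, of which the one with the highest mean was taken, and 21 had identical values on all arrays.

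SCD was compared with WT by limma 3.58.1 in R 4.3.3 (lmFit, eBayes with an intensity trend, group as the only term), two-sided, with Benjamini-Hochberg adjustment over all genes and a threshold of 0.05. No dim gene was filtered out. On simulated data of 30701 genes for this comparison, the fit recovered 24.6% of genes with a log2 change of 1. It recovered 91.6% of genes with a log2 change of 2, with 6.2 false calls on average. The simulated noise was independent between genes, with variances drawn from the fit's own prior, 200 changed genes and no array-wide shift. The count of false calls therefore need not hold for the real arrays. The members and gene lists were chosen with earlier results of these data known. Named genes were the 9 members, up to 6 called genes and 4 bright genes of each list, and the nearest profiles, not all of which are printed; any other gene is marked as chosen after its values were seen. Lists were described by counts and medians. Precision is limited by there being 4 arrays. Same-numbered arrays did not deviate together (r of -0.0022 across genes), and the main fit did not use the replicate number as a pairing. With 2 arrays a group, this correlation cannot exclude a pairing. Alternatives covered the replicate block, trend, dim filters, probe set choice, normalization, robust variance and each array left out. Removal of the exon control shift, restriction to protein-coding and constant region genes, omission of genes with identical values, the fit over every transcript cluster and the intervals between pairs of genes were added after seeing the data.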

Additional observations from a re-analysis of the deposited data

How the results depend on the processing

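Leaving out each array in turn gave 0 to 786 genes past the threshold in limma, against 949 with all 4, and at an unadjusted p under 0.05 the fits without SCD replicate 1 and without SCD replicate 2 held 3302 and 3267. The same fits gave 0 to 4 of the 9 genes and 0 to 21 of the genes in the wider lists, against 4 and 24. Under 11 other settings, Jchain, Ighg2b and Ighm kept their calls, with adjusted p of at most 0.00544, 0.0102 and 0.0475. Ighg1, Mzb1, Tnfrsf17 and Derl3 passed under none of the 10 settings that tested them; the dimmest 50% of genes includes them. Pigr was lost with the replicate block (adjusted p = 0.0534), with no intensity trend (0.0603) and after removal of the exon control shift (0.0621). The block left 968 genes, 3 of the 9 genes and 22 list genes past the threshold. The Ms4a1 difference was 0.0073 with quantile normalization and 0.022 with equal array medians, and it ran from -0.13 to 0.11 when arrays were left out, above 0 without SCD replicate 2 (0.11) and without WT replicate 1 (0.011); the cause was not tested. Taking off the exon control shift moved the median of all genes to -0.16 and the share of higher calls to 55.8%, against 79.5%, which follows from subtracting 1 amount from every SCD value. Of the list counts, the ER genes gave 2 without the trend and 9 without the dimmest 50% or with protein-coding and constant region genes alone, against 5. The B cell genes gave 2 lower in 5 settings, dim filters and the exon control shift among them, and 1 lower with equal array medians, against 0. The transport genes gave 1 with the block, without the trend and with the shift removed, against 3, the T cell genes gave 1 in the same settings, against 2, with Cd3e lost (adjusted p = 0.0519 with the block), and the airway genes 10 with protein-coding and constant region genes alone, against 6. With 2 arrays a group and signal near the intron controls, small changes of Ighg1, Mzb1, Tnfrsf17 and Derl3 were not detectable here.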
